A study of Mus musculus with 18 samples.

Results

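The 2′-5′-oligoadenylate synthetase (OAS) family was followed through mouse melanomas injected with a STING agonist, either free or carried on extracellular vesicles (EVs). The members were taken by name: Oas1a, Oas1b, Oas1c, Oas1g, Oas2, Oas3, Oasl1 and Oasl2, which are 8 of the 50600 gene rows of the count table and 8 of the 12 Oas genes that GENCODE M21 annotates. All 8 passed the filter on low counts.

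Every sample was a B16F10 melanoma, a cell line grown under the skin of C57BL/6 mice (females bought at 5 to 6 weeks of age), so each library holds RNA of the tumor cells together with that of the host cells inside the tumor. CDN2 is a cyclic dinucleotide that activates STING, named CL656 in the sample labels, and exoCDN2 is the same compound loaded on EVs made by HEK293 cells, a human line. After 1 intratumoral injection, 2 tumors each had received PBS, unloaded EVs, exoCDN2 (0.1 µg), CDN2 (20 µg) or CDN2 (100 µg). After 2 injections 3 days apart, 2 tumors each had received PBS, exoCDN2 (0.1 µg), CDN2 (20 µg) or CDN2 of an amount that the labels do not give. All 18 tumors were taken 24 h after the last injection, and each group has n = 2. The p-values rest on a spread between replicate tumors that is estimated over all groups of a fit, not on the compared pairs alone. That spread was unequal: 4.02% of genes differed more than 2-fold between the PBS tumors of 1 dose. Between the tumors given 2 doses of CDN2 (20 µg) it was 27.4%. An exact permutation test of 2 tumors against 2 cannot go below p = 0.333 (two-sided), so the tests given are those of a model fitted across all genes.

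OAS proteins are sensors of double-stranded RNA. On binding it, the active enzymes join ATP into short 2′-5′-linked oligoadenylates (2-5A), a second messenger of the antiviral response. Type I interferon raises their transcription through factors that bind interferon-stimulated response elements (ISREs), and STING activation leads to that interferon through IRF3. In the mouse, Oas1a, Oas1g, Oas2, Oas3 and Oasl2 encode active synthetases. Oas1b, Oas1c and Oasl1 encode relatives without that activity, of which Oasl1 is known to hold back the translation of Irf7.

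All members lie on chromosome 5 of GRCm38, in 2 blocks. Oasl2 (114896936 to 114912234, plus strand) and Oasl1 (114923240 to 114937915, plus strand) are neighbors. The other block runs from Oas2 (120730333 to 120749853, minus strand) and Oas3 (120753098 to 120777661, minus strand) through Oas1c (120800194 to 120812514, minus strand), Oas1b (120812635 to 120824163, plus strand) and Oas1g (120876142 to 120887613, minus strand) to Oas1a (120896256 to 120907521, minus strand). Oas1b is listed as a polymorphic pseudogene in GENCODE, since C57BL/6 and most laboratory strains carry a truncated allele of this flavivirus resistance gene.

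The Oas1 paralogs are close enough in sequence for reads to be shared, and the first 60 coding bases show how close. They are printed 5′ to 3′ from the GENCODE M21 transcripts (GRCm38), with capitals where a gene differs from Oas1a.
Oas1a (chr5:120907417-120907476, minus strand): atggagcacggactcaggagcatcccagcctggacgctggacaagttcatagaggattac
Oas1g (chr5:120887503-120887562, minus strand): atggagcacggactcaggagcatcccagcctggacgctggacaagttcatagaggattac
Oas1b (chr5:120812701-120812760, plus strand): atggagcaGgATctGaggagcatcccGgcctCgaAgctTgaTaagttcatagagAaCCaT
Oas1c (chr5:120808704-120808763, minus strand): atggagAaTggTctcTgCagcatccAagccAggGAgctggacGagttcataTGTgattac
Oas1g had 0 differences from Oas1a in this stretch, whereas Oas1b and Oas1c had 13 each. Over the 1101 aligned coding bases Oas1a and Oas1g were 96.73% identical, with a longest identical run of 231 bases, against 79.37% for Oas1a and Oas1b and 76.19% for Oas1a and Oas1c. Of all distinct 50-base words in the transcripts of Oas1a, 57.57% also occurred in those of Oas1g, and 32.43% of its 150-base words, the length of 1 read, did so as well. The share of 50-base words found in another Oas gene was 9.82% for Oas1c, 1.17% for Oas1b and 0% for Oas2, Oas3, Oasl1 and Oasl2. The estimated counts of Oas1a and Oas1g were not whole numbers in any of the 18 tumors, whereas those of Oas1b were whole in all. Oas1a took 67.4% to 76.2% of the reads given to this pair in every tumor, so the split between Oas1a and Oas1g is uncertain in each value below, while their sum is not affected.

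The RefSeq promoter table (GRCm38.p6; 250 bases before to 50 after each start site) matched 6 of the 8 members; it holds no entry for Oas1b and Oas2. The ISRE core was searched as GAAA, any 2 bases and GAAA again on both strands, and 4 of the 6 promoters held it, against 3.44% of all 32851 promoters of that length. The windows below carry the core in capitals with 20 bases on each side, and are shown because their genes all moved with the agonist.
Oas1a (chr5:120907510-120907565, minus strand): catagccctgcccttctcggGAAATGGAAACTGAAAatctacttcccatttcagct
Oas1g (chr5:120887596-120887651, minus strand): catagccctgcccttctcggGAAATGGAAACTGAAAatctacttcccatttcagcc
Oas1c (chr5:120812593-120812648, minus strand): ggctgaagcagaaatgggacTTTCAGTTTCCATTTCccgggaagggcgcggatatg
Oas3 (chr5:120777705-120777754, minus strand): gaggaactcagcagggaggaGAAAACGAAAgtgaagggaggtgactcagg
In Oas1a and Oas1g the 16 capitals are 2 overlapping matches that begin 20 and 18 bases before the start site. Oas1c holds the same 16 letters, read on the other strand, 114 bases before its start site; the end of that block lies 7 bases from the annotated start of Oas1b, which points the opposite way. The promoters of Oasl1 and Oasl2 held no match to these letters in this window. The spacing TTCNNNGAA of the gamma-interferon activation site (GAS) occurred in 1 of the 6 promoters, that of Oas1a, and in 8.3% of all promoters. Such matches describe letters and were not tested as binding sites.

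Libraries held 21608895 to 65983630 estimated counts, and replicates of 1 group correlated across genes at r = 0.950 to 0.993. The melanocyte markers (6 of 6 detected in every tumor) summed to 19602 to 24516 CPM (each gene's count scaled to library size with TMM factors) in 14 tumors. They were lower after 2 doses of exoCDN2 (14524 and 15748 CPM) and of CDN2 (20 µg), at 7214 and 12518 CPM. The tumors given 2 doses of CDN2 (20 µg) stood apart from the rest: they differed most from each other (r = 0.950, 27.4% of genes apart by more than 2-fold), and the shallower of them, replicate 1, held 2917 CPM of 3 skeletal muscle markers and 835 CPM of 5 neutrophil markers, against 1366 and 189.0 CPM in replicate 2. In whole tumors, more cells of a type and more RNA per cell cannot be told apart.

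After 1 dose every member was higher with the agonist than with PBS, from about 2-fold for Oas1c, or for Oas1a at 100 µg, to more than 30-fold for Oasl1. All 8 members passed the test (edgeR's quasi-likelihood F-test, Benjamini-Hochberg adjusted p under 0.05 and a ratio over 2) for exoCDN2, for CDN2 (20 µg) and for CDN2 (100 µg), where 2.62%, 3.14% and 2.44% of all 16927 genes tested did. The member median was a log2 fold change of 2.63, 2.33 and 1.83, beside −0.02, −0.0035 and −0.0044 over all genes. In each of these comparisons both treated tumors lay above both PBS tumors for all 8 members, but the share of all genes separated in this way was not computed.

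Markers of other cell types also differed between the tumors of 1 dose. The 5 neutrophil markers summed to 4.42 and 4.69 CPM in PBS (Ly6g at 0 in replicate 2), to 58.7 and 36.0 CPM with exoCDN2, to 12.1 and 28.3 CPM with CDN2 (20 µg) and to 13.0 and 16.02 CPM with CDN2 (100 µg). The T cell markers were at 6.52 and 8.58 CPM in PBS, lower with exoCDN2 (2.16 and 2.90 CPM) and with CDN2 (100 µg; 1.22 and 1.36 CPM, with Cd8a at 0 in replicate 1), and at 4.21 and 9.14 CPM with CDN2 (20 µg). The keratinocyte markers went from 113.8 and 60.5 CPM in PBS to 0.161 to 5.45 CPM in the 6 agonist tumors, and the macrophage and monocyte markers were at 120 and 152 CPM in PBS and at 124 and 112 CPM with exoCDN2. Some of these differences from PBS were also seen with unloaded EVs, which carry no agonist. There the keratinocyte markers were at 47.2 and 0.150 CPM and the T cell markers at 1.92 and 5.25 CPM. The neutrophil markers were at 11.0 and 3.20 CPM and the macrophage and monocyte markers at 91.1 and 203 CPM. The part of all these markers in the OAS levels after 1 dose was not tested.

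**Figure D1:**
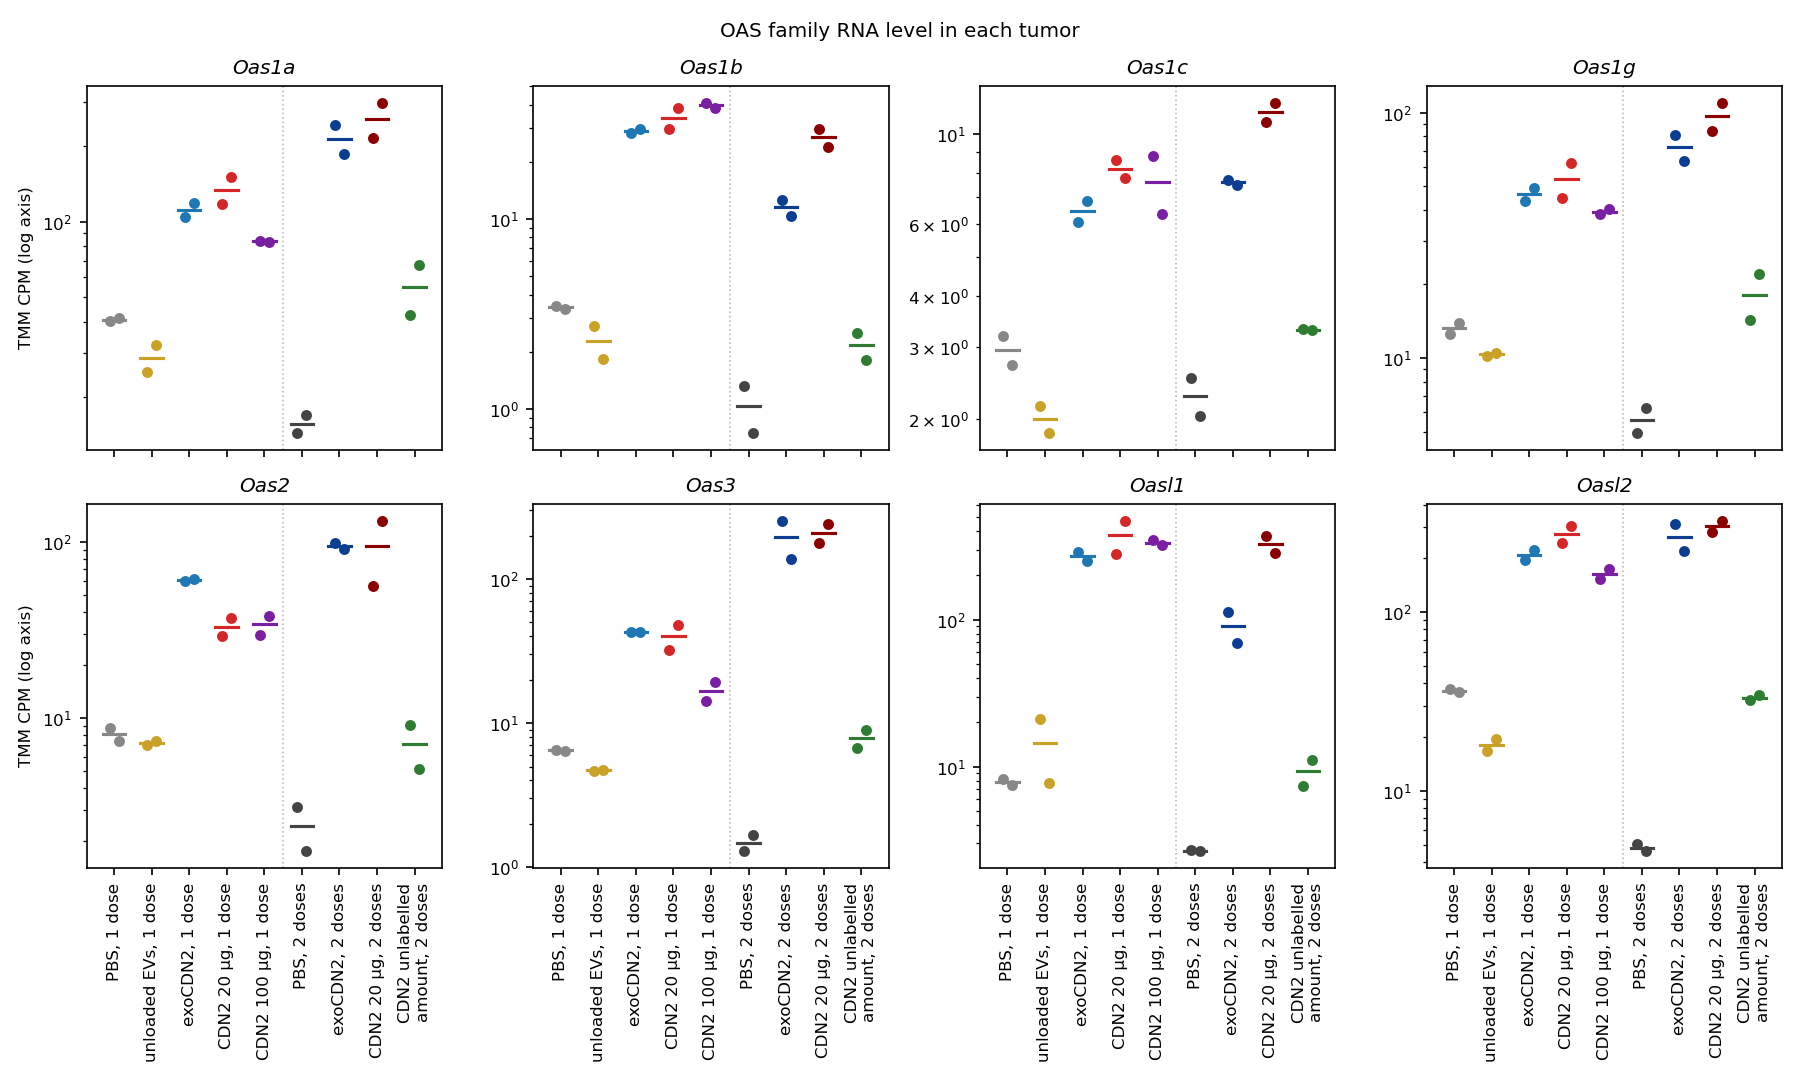
Level of each OAS family member in each of the 18 tumors, in TMM-scaled CPM on a log axis that differs between panels; points are tumors, bars are means of 2 tumors, and the dotted line separates 1 dose (left) from 2 doses (right). All members are high with exoCDN2 and with CDN2 at 20 or 100 µg, Oas1b and Oasl1 are lower after 2 doses of exoCDN2 than after 1, Oas3 is higher, and PBS tumors are lower after 2 doses.

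Oasl1 moved most. It stood at 8.23 and 7.47 CPM in the PBS tumors and at 289 and 250.2 CPM with exoCDN2, an increase of 5.10 ± 0.46 (log2, SE; adjusted p = 6.52e-05). With CDN2 (20 µg) it reached 278 and 472 CPM (5.58 ± 0.47, adjusted p = 4.72e-05) and with CDN2 (100 µg) 347 and 321 CPM (5.41 ± 0.46, adjusted p = 5.5e-05). The tumors given CDN2 (20 µg) overlapped those of both other agonist groups, and all 6 lay far above PBS.

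Oas1b, the truncated paralog, changed next most. The PBS tumors held 3.48 and 3.37 CPM, the exoCDN2 tumors 28.4 and 29.9 CPM (3.09 ± 0.26, adjusted p = 4.9e-05), those given CDN2 (20 µg) 29.8 and 38.6 CPM and those given CDN2 (100 µg) 41.0 and 38.3 CPM. Its reads are hardly shared with the other paralogs. Oas1c, another paralog without synthetase activity, was low throughout, with 3.19 and 2.71 CPM in PBS and 6.07 to 8.84 CPM in the 6 agonist tumors. Its increase with exoCDN2, 1.13 ± 0.21 (adjusted p = 0.0121), was the smallest of the family and missed the threshold when any 1 of the 4 tumors was left out (adjusted p = 0.0549 to 0.195).

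Among the active synthetases, Oas2 and Oas3 rose from the lowest levels. Oas2 went from 8.79 and 7.39 CPM to 60.3 and 61.2 CPM with exoCDN2 (2.91 ± 0.35, adjusted p = 6.64e-04). With free agonist Oas2 was at 29.3 and 36.8 CPM (20 µg) and 29.8 and 38.1 CPM (100 µg), so all 4 of these tumors lay below both exoCDN2 tumors. Oas3 stood at 6.50 and 6.46 CPM in PBS, at 42.9 and 43.1 CPM with exoCDN2 (2.73 ± 0.30, adjusted p = 3.1e-04), at 32.3 and 48.3 CPM with CDN2 (20 µg) and at only 14.2 and 19.3 CPM with CDN2 (100 µg). The Oas1a level was already 40.2 and 41.2 CPM in PBS and came to 104 and 119 CPM with exoCDN2 (1.45 ± 0.20, adjusted p = 0.00168). Oas1g was at 12.6 and 13.8 CPM in PBS and at 43.8 and 49.2 CPM with exoCDN2, within the limits on splitting reads with Oas1a. The sum of the 4 Oas1 members with Oas1d, Oas1e, Oas1f and Oas1h went from 59.5 and 61.1 CPM to 183 and 206 CPM. Those limits do not touch this sum. Oasl2 went from 37.0 and 35.8 CPM to 196 and 222 CPM with exoCDN2 (2.52 ± 0.19, adjusted p = 2.86e-05), and to 244 and 303 CPM with CDN2 (20 µg).

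**Figure D2:**
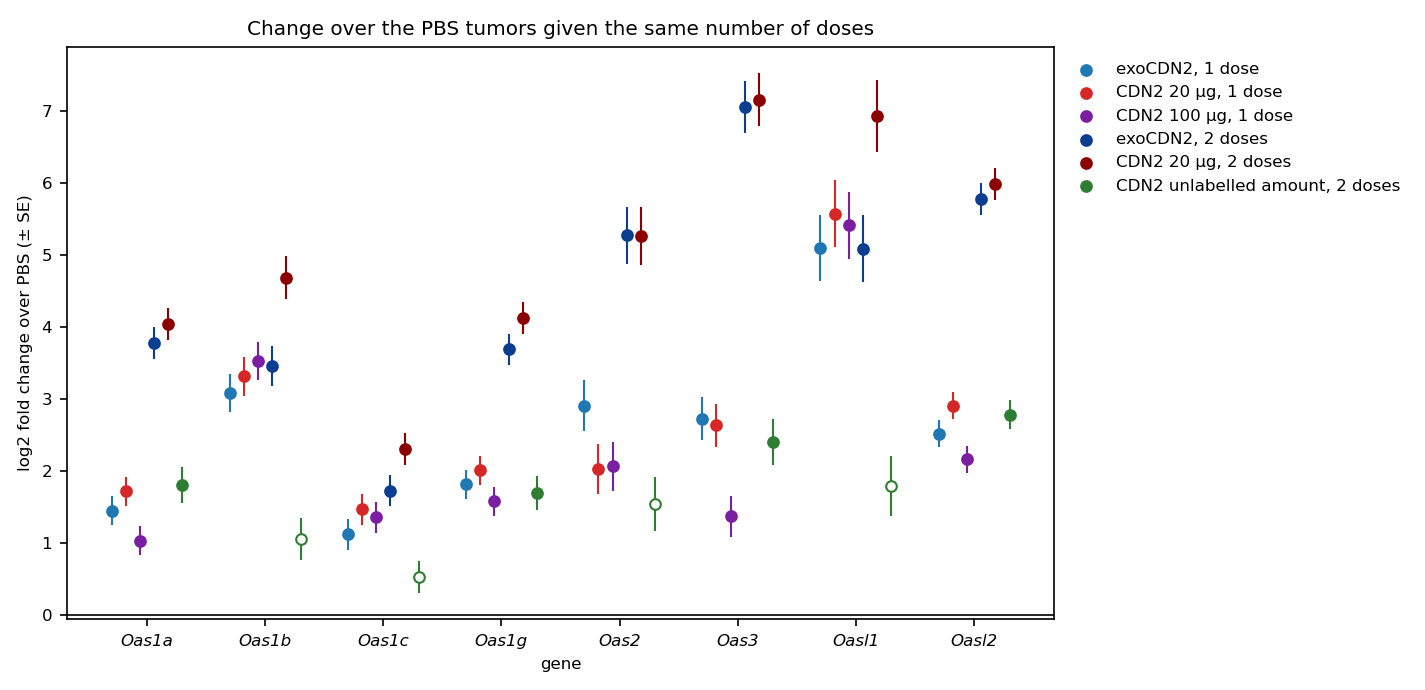
Log2 fold change of each member over the PBS tumors given the same number of doses, with its standard error, for 6 treatments; filled points passed the test and open points did not. Oasl1 leads after 1 dose at 5.10 to 5.58, Oas3 leads after 2 doses of exoCDN2 or CDN2 (20 µg) at 7.06 and 7.16, and the group of unlabelled amount stays between 0.53 and 2.79.

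Some calls of 1 dose needed all tumors. For exoCDN2, 7 members passed when any 1 of the 4 tumors was left out. For CDN2 (20 µg), Oas2 missed the threshold without replicate 2 of CDN2 or replicate 1 of PBS, and Oas2 and Oas1c missed it without replicate 2 of PBS, which left 6. For CDN2 (100 µg), 5 members passed without either CDN2 tumor and 4 without either PBS tumor. The members lost there were Oas1a, Oas1c, Oas2 and Oas3, while Oas1b, Oas1g, Oasl1 and Oasl2 passed each time.

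Unloaded EVs were the vehicle control of exoCDN2, and 0 of 8 members passed against PBS (0% of all genes; 540 of 16927 genes, 5 of them members, had an unadjusted p under 0.05, and DESeq2 called 1 member). Oasl2 stood at 16.6 and 19.5 CPM with unloaded EVs against 37.0 and 35.8 CPM in PBS, a difference of −1.01 ± 0.18 with an adjusted p of 0.381, or 8.88e-04 by DESeq2. Against PBS of both numbers of doses pooled, the differences of Oas1a, Oas1b, Oas1g, Oas2 and Oas3 turned sign (0.0283 to 0.45). Against PBS of 1 dose, both EV tumors lay below both PBS tumors for 7 members. The share of all genes placed this way was not computed. The member not placed this way was Oasl1, at 21.2 and 7.72 CPM, where replicate 1 was high and replicate 2 at the PBS level. Its log2 difference of 0.89 became −0.02 without replicate 1. Against unloaded EVs, all 8 members were higher with exoCDN2 (2.95% of all genes), by 1.68 ± 0.22 for Oas1c to 4.22 ± 0.44 for Oasl1.

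exoCDN2 (0.1 µg) and CDN2 (20 µg) were compared as given, at amounts of agonist that differ. After 1 dose 0 of 8 members passed (0.608% of all genes), and DESeq2 also called none. By edgeR, 2 members and 3300 of all 16927 genes had an unadjusted p under 0.05. The largest difference was that of Oas2, higher with exoCDN2 by 0.88 (95% interval 0.16 to 1.60, adjusted p = 0.173), and the lowest that of Oasl1, −0.48 (−1.31 to 0.36). A miss of the threshold does not show that both act alike. Between CDN2 at 100 µg and at 20 µg, again 0 members passed (0.455% of all genes). Here 4 members and 2797 of all 16927 genes had an unadjusted p under 0.05 by edgeR. Oas3 was lower at 100 µg by 1.26 on the log2 scale (95% interval −1.88 to −0.65), with an adjusted p of 0.0662, and it did pass by DESeq2 (adjusted p = 0.00177), without the filter on low counts and with only these 2 groups fitted. Oasl2 (−0.74, adjusted p = 0.0817) and Oas1a (−0.68, adjusted p = 0.122) were also below in both tumors, while the Oas1b tumors overlapped (0.22, adjusted p = 0.689).

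After 2 doses every member was again higher with the agonist than with PBS. All 8 members passed for exoCDN2 (11.3% of all genes) and for CDN2 (20 µg; 30.6% of all genes), a background much above that of 1 dose. The member medians were 4.43 and 4.98 beside 0.0064 and 0 over all genes. All 8 still passed when any 1 tumor was left out, replicate 1 of CDN2 (20 µg) included.

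Oas3 moved most after 2 doses. The PBS tumors held 1.29 and 1.66 CPM, those given exoCDN2 255 and 139 CPM and those given CDN2 (20 µg) 178 and 243 CPM. These are increases of 7.06 ± 0.37 (adjusted p = 6.75e-07) and 7.16 ± 0.37 (adjusted p = 4.89e-07). Oasl2 came next with exoCDN2, from 5.02 and 4.58 CPM in PBS to 309.8 and 219 CPM (5.78 ± 0.22, adjusted p = 1.13e-07), the smallest adjusted p of the family with this agent. Oas2 stood at 3.12 and 1.75 CPM in PBS, at 98.4 and 91.4 CPM with exoCDN2, and at 56.4 and 132 CPM with CDN2 (20 µg), the only member whose replicates differed more than 2-fold in that group. The Oas1a level went from 14.3 and 16.9 CPM to 242 and 186 CPM with exoCDN2 and to 216 and 299 CPM with CDN2 (20 µg), with overlap between both agents.

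Between the agents after 2 doses, Oasl1 and Oas1b were the members called, a share of the family near that of all genes. Oasl1 stood at 2.69 and 2.65 CPM in PBS, at 113 and 69.4 CPM with exoCDN2 and at 371 and 282 CPM with CDN2 (20 µg), and Oas1b at 1.33 and 0.744, 12.6 and 10.4, and 29.9 and 23.8 CPM. Both exoCDN2 tumors lay below both CDN2 tumors for each gene. The difference was −1.85 ± 0.39 for Oasl1 (adjusted p = 0.00558) and −1.23 ± 0.25 for Oas1b (adjusted p = 0.00436), and these were the 2 members of 8 that passed between exoCDN2 and CDN2 (20 µg), where 19.4% of all genes did. Oas1c was lower by 0.58 on the log2 scale (adjusted p = 0.0477), a ratio under 2. Oas1g, an active synthetase, changed by −0.43 (95% interval −0.85 to −0.01, adjusted p by edgeR = 0.0965). For Oas1c and Oas1g, too, both exoCDN2 tumors lay below both CDN2 tumors. Oas3 (−0.10, 95% interval −0.70 to 0.50) and Oas2 (0.01, −0.70 to 0.72) did not pass. Both calls were lost without replicate 2 of exoCDN2, with log2 differences of −1.51 for Oasl1 and −1.07 for Oas1b. They were also lost when only these 2 groups were fitted (adjusted p by edgeR = 0.137 for each).

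Markers of some immune cells moved with the second dose. The 7 macrophage and monocyte markers, all detected, summed to 595 and 370 CPM with exoCDN2 and to 789.6 and 348 CPM with CDN2 (20 µg), against 100.1 and 72.2 CPM in PBS after 2 doses and 94.7 to 166 CPM in the agonist tumors of 1 dose. The 5 T cell markers reached 27.7 and 21.4 CPM with exoCDN2, and the 3 NK cell markers 12.4 and 8.39 CPM, while with CDN2 (20 µg) they were at 6.67 and 6.90 CPM and at 1.12 and 5.81 CPM. In PBS of 2 doses they were at 1.63 and 0.832 CPM and at 1.37 and 0.788 CPM. The 5 dendritic cell markers were at 6.62 and 6.82 CPM with exoCDN2 and at 9.92 and 4.62 CPM with CDN2 (20 µg), against 8.49 and 10.03 CPM in PBS. None of these markers was at 0 in the 4 tumors, and their part in the OAS levels after 2 doses was not tested.

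Tumors given CDN2 of the unlabelled amount stayed nearer to PBS. Of the 8 members 4 passed against PBS of 2 doses, where 0.959% of all 17110 genes of that fit did: Oasl2 (2.79 ± 0.20, adjusted p = 2.57e-05), Oas3 (2.41 ± 0.32), Oas1a (1.81 ± 0.24) and Oas1g (1.70 ± 0.24). Oasl2 stood at 32.1 and 34.2 CPM there, and Oas3 at 6.75 and 8.97 CPM. All 8 members lay above both PBS tumors of 2 doses, without a computed share of all genes that did so. However, Oasl2 and Oas1b lay below both PBS tumors of 1 dose, and Oas2 and Oasl1 overlapped them. The T cell markers summed to 6.45 and 8.02 CPM in these tumors against 1.63 and 0.832 CPM in PBS of 2 doses, and their part in the result was not tested. Replicate 2 of the group had the highest share of counts in mitochondrial genes of the 18 tumors (7.67%, against 1.95% to 5.12% in the others) and in its top 10 genes (14.3%, against 6.39% to 10.7%), and 4 members passed without it. The count was 7 by DESeq2 or without the filter on low counts, and 0 against PBS of both numbers of doses pooled.

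The PBS tumors themselves differed between the schedules. Of the 8 members 6 were lower after 2 doses of PBS than after 1 (1.1% of all genes passed), by 2.92 ± 0.20 for Oasl2 (adjusted p = 7.61e-05), which went from 37.0 and 35.8 to 5.02 and 4.58 CPM, and by 2.13 ± 0.32 for Oas3. The 2 that did not pass were Oas1c (−0.37, adjusted p = 0.651) and Oasl1 (−1.55, adjusted p = 0.13). Without replicate 2 of PBS after 2 doses, 3 members passed. Markers moved with this difference: the 5 T cell markers summed to 6.52 and 8.58 CPM after 1 dose of PBS and to 1.63 and 0.832 CPM after 2. The 3 keratinocyte markers summed to 113.8 and 60.5 CPM after 1 dose and to 0.225 and 0 CPM after 2, with Krt5, Krt14 and Krt1 all at 0 in replicate 2. Their part in the result was not tested. The tumors of 2 doses were taken 3 days later after the first injection, which cannot be told apart from the number of injections.

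**Figure D3:**
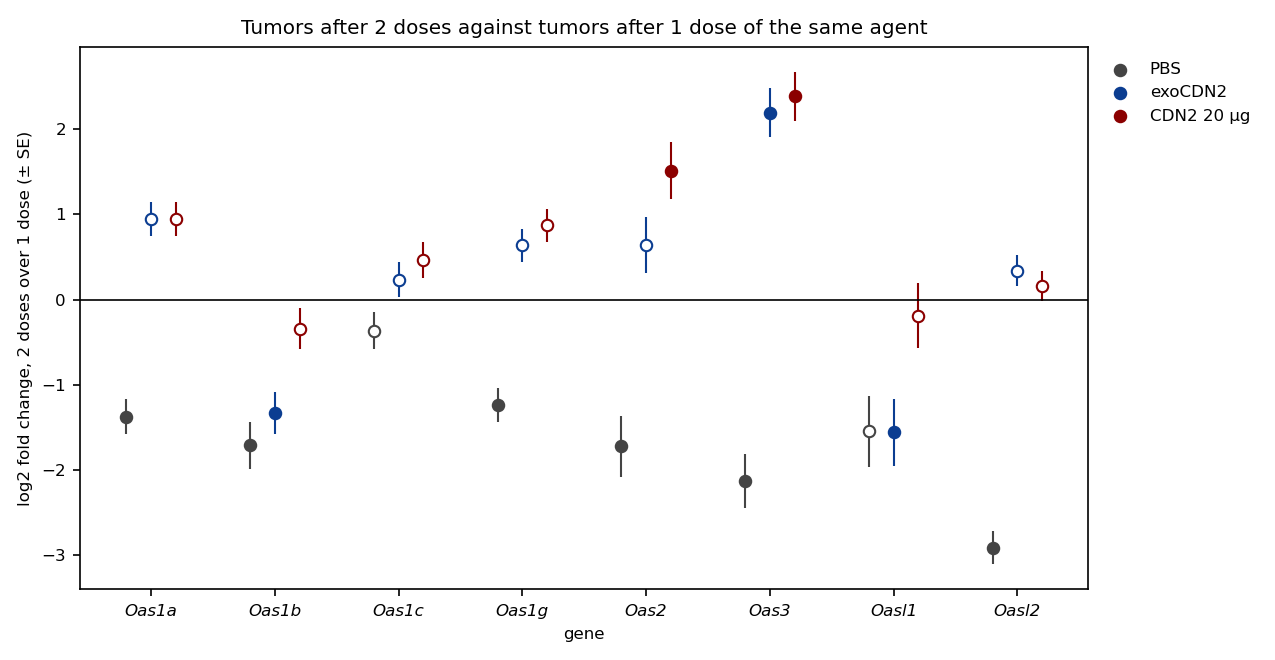
Log2 fold change of each member between tumors after 2 doses and tumors after 1 dose of the same agent, with its standard error; filled points passed the test. PBS points lie below 0 for every member and 6 of them passed, Oas3 rises with both agents by 2.19 and 2.39, and Oas1b and Oasl1 fall with exoCDN2 by 1.34 and 1.56 on the log2 scale.

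Between 2 doses and 1 dose of exoCDN2 the members called went both ways, but the 2 lower calls needed particular tumors. With exoCDN2, 3 of 8 passed between 2 doses and 1 dose (7.44% of all genes): Oas3 was higher by 2.19 ± 0.29 (adjusted p = 0.00165), and Oas1b and Oasl1 were lower by 1.34 ± 0.24 (adjusted p = 0.00601) and 1.56 ± 0.39 (adjusted p = 0.0235). The call of Oasl1 was lost without any 1 of the 4 tumors (adjusted p = 0.0756 to 0.152) and that of Oas1b without replicate 1 of exoCDN2 after 1 dose, which left 1 member. With CDN2 (20 µg), 2 of 8 passed, a share near the 20.8% of all genes: Oas3 at 2.39 ± 0.29 and Oas2 at 1.52 ± 0.33. The log2 change of Oasl1 was −0.19 ± 0.38. Only Oas3 passed without replicate 1 of 1 dose or replicate 2 of 2 doses, and 4 members did without replicate 2 of 1 dose or replicate 1 of 2 doses, as Oas1a and Oas1g then exceeded a ratio of 2.

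The change from 1 to 2 doses was then taken relative to that of PBS, as an interaction. For exoCDN2 5 members were higher (6.82% of all genes): Oas3 at 4.33 ± 0.43, Oasl2 at 3.26 ± 0.26, Oas2 at 2.37 ± 0.48, Oas1a at 2.32 ± 0.29 and Oas1g at 1.88 ± 0.28. For CDN2 (20 µg) the same 5 and Oas1b were higher (16.8% of all genes), with Oas3 at 4.52 ± 0.43 and Oas1b at 1.37 ± 0.37. Between the doses of CDN2 itself, Oas1b changed by −0.34 ± 0.24 and Oasl2 by 0.16 ± 0.18, and neither passed. Their PBS tumors changed by −1.72 and −2.92. Oas1a (0.94) and Oas1g (0.87) did not reach a ratio of 2 between the doses of CDN2. For Oasl2 the exoCDN2 tumors changed by only 0.34 ± 0.18 and the PBS tumors by −2.92 ± 0.20, whereas Oas3 combined a fall in PBS with a rise under treatment. The exoCDN2 changes of Oas1a (0.94), Oas1g (0.64) and Oas2 (0.64) did not pass either, while their PBS tumors changed by −1.38, −1.24 and −1.73. Oasl1 had an interaction of −0.01 ± 0.56 with exoCDN2, from a change of −1.56 in the treated and −1.55 in the PBS tumors.

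**Figure D4:**
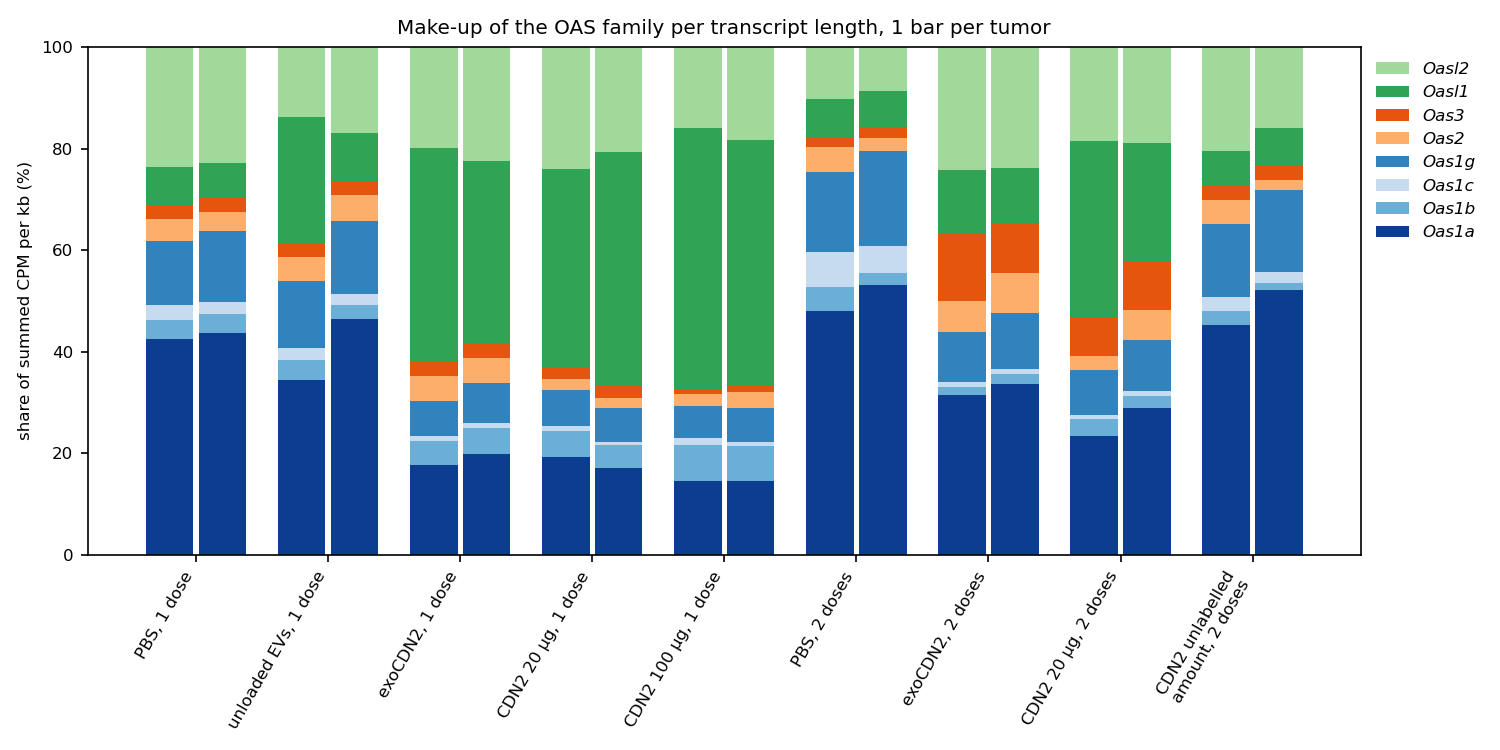
Share of each member in the family's summed CPM per kilobase of its longest annotated transcript, 1 bar per tumor (%). Oas1a is the tallest segment in PBS, Oasl1 takes 36.1% to 51.5% in the agonist tumors of 1 dose, and after 2 doses of exoCDN2 Oas1a, Oasl2 and Oas3 hold more.

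Per transcript length the make-up of the family shifted with treatment. In the 4 PBS tumors Oas1a held 42.5% to 53.1% of the summed CPM per kilobase and Oasl1 6.85% to 7.81%. In the 6 agonist tumors of 1 dose Oasl1 held 36.1% to 51.5%, ahead of every other member. After 2 doses of exoCDN2 its share was 12.6% and 10.8%, behind Oas1a at 31.4% and 33.6% and Oasl2 at 24.2% and 23.8%, and Oas3 held 13.2% and 9.997% against 2.88% in both tumors of 1 dose. With 2 doses of CDN2 (20 µg) Oasl1 kept 34.7% and 23.5%. The summed level was 15.8 and 16.9 CPM per kilobase in PBS after 2 doses and 491 and 551 in CDN2 (20 µg), the lowest and highest groups of the study.

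Over all 9 groups the order of levels differed by member. CDN2 (20 µg) after 2 doses had the highest mean of Oas1a, Oas1c, Oas1g, Oas3 and Oasl2, exoCDN2 after 2 doses that of Oas2, CDN2 (20 µg) after 1 dose that of Oasl1, and CDN2 (100 µg) that of Oas1b. PBS after 2 doses was lowest for all members but Oas1c, which was lowest with unloaded EVs. Of the 8 steps between neighboring groups in each order, the tumors of neighbors overlapped at 5 steps for Oasl1, 4 for Oas1b and Oas2, 3 for Oas1c and Oasl2, 2 for Oas1a and Oas3 and 1 for Oas1g. For Oasl1 and Oas1b the top 4 groups followed each other with overlap, so their order is not resolved.

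As a description over 16 tumors (those with a stated amount, which share treatments and libraries), members correlated pairwise at r = 0.7525 to 0.992 of log2 CPM. The lowest pair was Oas1b and Oas3 and the highest Oas1a and Oas1g, which share reads. The genes most like Oasl1 were Ifit3 (r = 0.985), Rsad2 (0.984) and Oas1b (0.983), and those most like Oas1b were Ifit3 (0.992), Ifit3b and Rsad2. The pattern of Oas3 was closest to Lgals9 (0.993), Irf7 (0.988) and Oas1a (0.985), that of Oasl2 to Trim12a (0.991), Irf9 and Dhx58, that of Oas2 to Trim30a (0.980), Ifi44 and Xaf1, and that of Oas1c to Ccl5 (0.972), Gm45418 and Fam129a. Oas1a and Oas1g were most like each other, then Phf11d and Lgals9, and Xaf1 and Ifi208.

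The other Oas1 paralogs were nearly silent. Oas1d, Oas1e, Oas1f and Oas1h had 0 to 26 estimated counts in any tumor; Oas1e and Oas1f did not pass the filter. Oas1d, known from oocytes, and Oas1h were at 0 in both PBS tumors of 1 dose and at 0.0989 to 0.598 CPM in the 6 agonist tumors of 1 dose. They passed the filter only through tumors where they were high, so their tests are not given.

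Abce1, an ATPase that recycles ribosomes, was lower with 2 doses of CDN2 (20 µg), by 1.05 on the log2 scale. It stood at 88.2 and 117 CPM against 239 and 187 CPM in PBS (adjusted p by edgeR = 8.75e-04). In that comparison 30.6% of all genes passed, and 1786 of 16927 were lower. Pde12, a phosphodiesterase that degrades 2-5A, passed in 0 of the 16 comparisons.

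**Figure D5:**
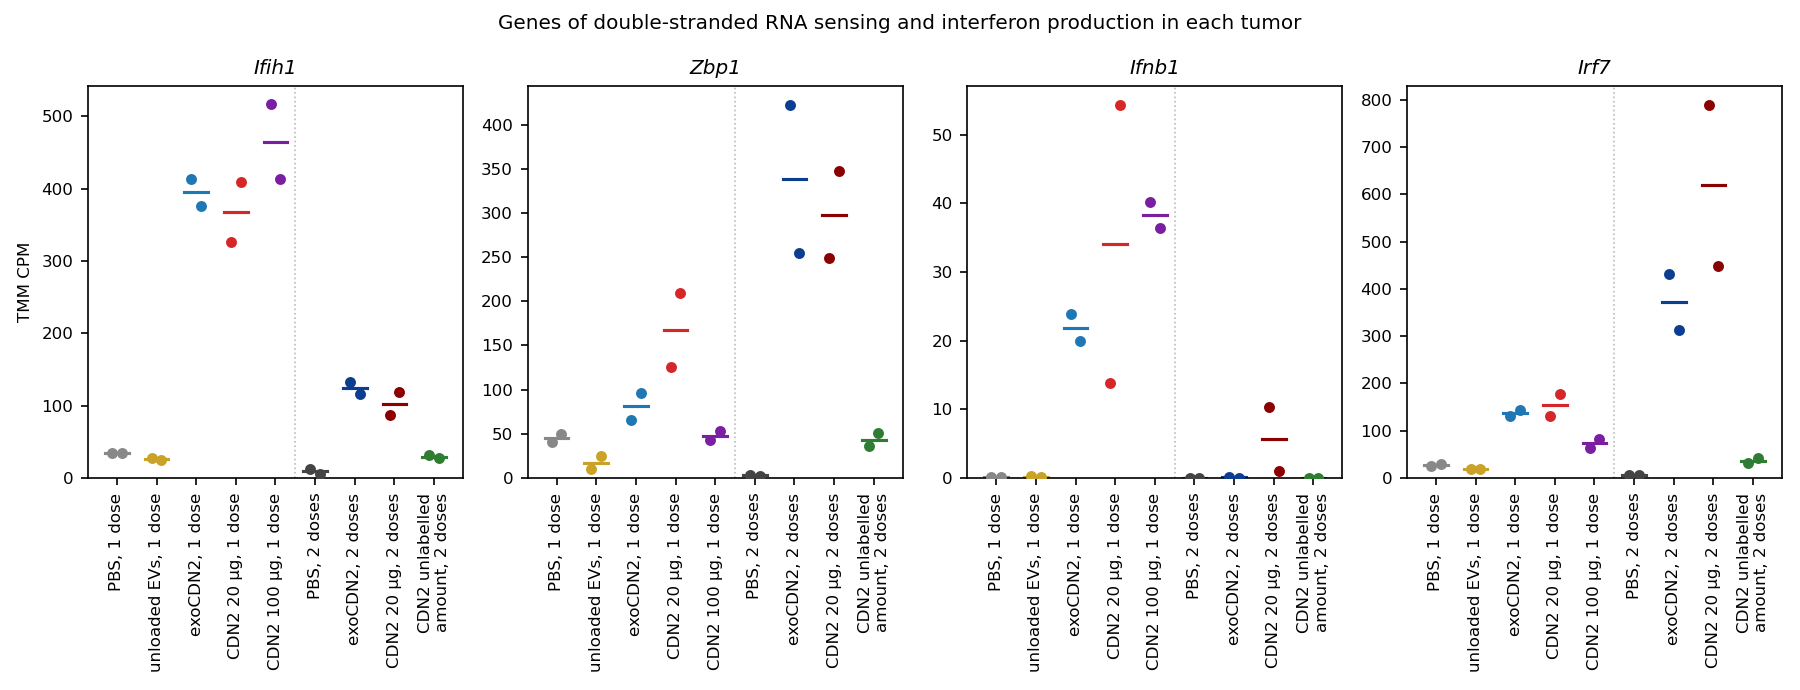
Level in each of the 18 tumors of Ifih1 (MDA5), Zbp1, Ifnb1 (interferon beta) and Irf7, in TMM-scaled CPM on linear axes from 0; points are tumors, bars are means of 2 tumors, and the dotted line separates 1 dose from 2 doses. With exoCDN2 and with CDN2 (20 µg), the points of Ifih1 and Ifnb1 lie lower after 2 doses than after 1, and the points of Zbp1 and Irf7 lie higher, a difference that passed for all but Zbp1 with CDN2 (20 µg).

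Of 8 genes of double-stranded RNA sensing, 6 were higher than PBS after 1 dose of exoCDN2, 6 with CDN2 (20 µg) and 4 with CDN2 (100 µg), and 7 were higher after 2 doses of either agent; none was lower. The shares over all genes were 2.62%, 3.14% and 2.44% after 1 dose, and 11.3% and 30.6% after 2 doses of exoCDN2 and CDN2 (20 µg). Between the doses of exoCDN2, 1 gene of this list was higher and 3 were lower, where 7.44% of all genes passed. Ifih1, the sensor MDA5, fell by 1.66 ± 0.28 (adjusted p = 0.00439) from 414 and 375 CPM to 133 and 116 CPM, and Zbp1, a sensor of Z-form nucleic acid, was higher by 2.07 ± 0.41 (adjusted p = 0.0088). Eif2ak2, the kinase PKR, was at 311 and 340.4 CPM with 1 dose of exoCDN2 (2.27 ± 0.39 over PBS) and at 122 and 133 CPM after 2 doses.

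Of 12 genes of interferon production and signaling, 5 were higher than PBS after 1 dose of each agonist and 7 did not pass. The 5 were Ifnb1, Stat2, Irf9, Irf1 and Irf7. Of all genes 2.62% passed for exoCDN2, 3.14% for CDN2 (20 µg) and 2.44% for CDN2 (100 µg). Ifnb1 stood at 23.9 and 19.9 CPM with exoCDN2, 13.9 and 54.4 CPM with CDN2 (20 µg) and 40.3 and 36.4 CPM with CDN2 (100 µg), against 0.131 and 0.119 CPM in PBS. Stat2, Irf9, Irf1 and Irf7 were also higher after 2 doses of exoCDN2, of CDN2 (20 µg) and of the unlabelled amount. In these 3 comparisons 5, 7 and 5 of the 12 genes were higher, where 11.3%, 30.6% and 0.959% of all genes passed. After 2 doses of exoCDN2 Ifnb1 was at 7 and 3 counts (0.136 and 0.0423 CPM), and with CDN2 (20 µg) at 185 and 40 counts (10.4 and 1.06 CPM), with 0 counts in both PBS tumors. Its fall between the doses passed for exoCDN2 (−7.99 ± 1.20, adjusted p = 0.0036). The falls of Oas1b and Oasl1 passed as well, but those calls were lost when certain tumors were left out. Irf7 moved the other way, as did Oas3: from 132 and 144 CPM after 1 dose of exoCDN2 to 431 and 313 CPM after 2 (1.43 ± 0.26, adjusted p = 0.0056), and from 131 and 178 CPM to 789.6 and 447 CPM with CDN2 (20 µg; 2.01 ± 0.26). Stat2 and Irf9 were lower after 2 doses of PBS than after 1, by 1.38 and 1.13 on the log2 scale, the comparison in which 6 of the 8 OAS members were lower.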

How the data were processed

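RNA of 18 B16F10 tumors was sequenced by the authors (Illumina HiSeq, paired reads of 150 bases), aligned to GRCm38 with OSA in OmicSoft ArraySuite and quantified with RSEM on the Ensembl gene model; the submitters' processing notes name RSEM and mm10. The deposited table holds the authors' expected counts per gene, not normalized, of which 8.75% to 12.7% of values per tumor are not whole. Gene names came from GENCODE M21. The expected counts were rounded to whole numbers and tested with edgeR 4.0.16 (TMM factors, filterByExpr with a minimum count of 10 and total of 15, glmQLFit and glmQLFTest) on 16 tumors in 8 groups (16927 genes; 8 residual degrees of freedom); the 2 tumors of unlabelled amount entered a separate fit of all 18 (17110 genes). A gene was called at a Benjamini-Hochberg adjusted p under 0.05 over all genes and a ratio over 2, in 16 comparisons. CPM are scaled by TMM factors of all 18 tumors; CPM per kilobase divide by the longest GENCODE transcript, and likeness is Pearson's r of log2 CPM with a prior count of 2. RSEM divides reads shared by paralogs by likelihood, which affects Oas1a and Oas1g. Alternatives were DESeq2 1.42.0, RLE factors, no filter, only the groups compared, a replicate block, pooled PBS, summed Oas1 genes and each tumor left out in turn. The script was tested on simulated counts. Members and lists were chosen with earlier results of these data known. The rule for naming genes was all 8 members, at most 5 genes of each pathway list, and the 3 genes most like each member. Some genes of the fixed lists are not reported here.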

Additional observations from a re-analysis of the deposited data

Results flagged for a closer look

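The change between 1 and 2 doses differed from that of PBS, by a test of the difference itself, for 5 members with exoCDN2: on the log2 scale Oas1a 2.32, Oas1g 1.88, Oas2 2.37, Oas3 4.33 and Oasl2 3.26, all higher relative to PBS. With CDN2 (20 µg) the difference passed for 6 members: Oas1a 2.32, Oas1b 1.37, Oas1g 2.11, Oas2 3.24, Oas3 4.52 and Oasl2 3.08. The PBS tumors of 2 doses enter all 11 values. The value of Oas2 with exoCDN2 missed the threshold when any 1 of 5 tumors was left out (adjusted p by edgeR = 0.0502 to 0.062), and that of Oas1b when any 1 of 4 was (0.0691 to 0.093).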

How the results depend on the processing

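Of 1400 recomputed log2 fold changes 1290 kept their direction and side of the threshold, 58 fell below it, 23 passed it and 29 turned sign, all of them among values that had not passed. Of 207 recomputed member counts 178 stayed within 1.5-fold. By DESeq2 and without the filter the counts were 1 (unloaded EVs against PBS), 7 (unlabelled amount) and 1 (CDN2 at 100 against 20 µg). With only the groups compared they were 0 (exoCDN2 against CDN2 after 2 doses), 1 (100 against 20 µg) and 1 (CDN2 after 2 against 1 dose), and with no ratio limit the last was 4. Pooled PBS gave 0 for the unlabelled amount. With the Oas1 genes summed, by construction 5 rows, 5 passed for exoCDN2 and CDN2 at either dose number, 100 µg and exoCDN2 against EVs, and 1 for exoCDN2 against CDN2 after 2 doses. The replicate block (numbers not known to pair tumors; correlations of same-numbered deviations −0.18 to 0.32, mean 0.01) gave 5 in place of 6 for PBS after 2 against 1 dose (Oas2, −1.72, adjusted p by edgeR = 0.0576) and changed no other count.

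Leaving out 1 tumor, counts ranged over 4 to 5 (100 µg against PBS), 0 to 2 (exoCDN2 against CDN2 after 2 doses), 1 to 3 (exoCDN2 after 2 against 1 dose), 1 to 4 (CDN2 likewise) and 3 to 6 (PBS likewise). Values that turned sign against pooled PBS were, for EVs, Oas1a 0.0283, Oas1b 0.0382, Oas1g 0.14, Oas2 0.45 and Oas3 0.25, and, for the unlabelled amount, Oas1b −0.0431. Oas2 between exoCDN2 and CDN2 after 2 doses was −0.0272 by DESeq2, −0.0321 with RLE factors, −0.0064 with only these groups and −0.48 to 0.78 leaving out 1 tumor. Other such ranges that crossed 0 were Oasl1 for EVs −0.0239 to 1.43; exoCDN2 against CDN2 after 1 dose, Oas1g −0.40 to 0.0556 and Oas3 −0.15 to 0.41; after 2 doses, Oas1a −0.49 to 0.0258, Oas3 −0.58 to 0.29 and Oasl2 −0.46 to 0.0446; 100 against 20 µg, Oas1c −0.37 to 0.10, Oas2 −0.15 to 0.21 and Oasl1 −0.50 to 0.26; CDN2 after 2 against 1 dose, Oasl1 −0.57 to 0.21 and Oasl2 −0.035 to 0.29; and Oasl1 of exoCDN2 relative to PBS, −0.40 to 0.30. The cause was not tested. With 2 tumors a group, a lone tumor is assumed to vary like the others.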
